A study of Homo sapiens with 6 samples.

Results

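The very long genes described here were the protein-coding genes on autosomes whose span in the GENCODE 29 annotation of GRCh38, from gene start to gene end, was 500 kb or more and whose mean level over all 6 libraries was at least 1 CPM, the estimated count scaled to a common library total. The rule found 192 genes among the 12717 protein-coding autosomal genes of at least 1 CPM and among 60184 features in the table. At any level 304 genes reached 500 kb, and the other 112 stayed under 1 CPM. The rule used span and mean level only, and no comparison between groups. Just outside it in span were DIAPH3 (498.4 kb), CACNA2D1 (497.4 kb) and RPS6KA2 (497.1 kb), and just inside SPOCK3 (501.4 kb), DNAH14 (503.0 kb) and ERC1 (505.4 kb). Just outside it in level were LSAMP (0.955 CPM), PPFIA2 (0.912 CPM) and LRMDA (0.877 CPM), and just inside MTUS2 (1.08 CPM), CDH12 (1.13 CPM) and SLIT3 (1.14 CPM).

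Almost all of such a gene is intron. RNA polymerase II has to travel the whole span before a complete transcript can be cleaved and polyadenylated, so the first full-length mRNA made after a promoter fires appears hours later in the longest genes, and agents that stall the polymerase along the DNA act most on them. Genes of this size include many that code for neuronal adhesion molecules, scaffolds and transcription factors. Several genes of this size lie at common fragile sites, regions prone to breakage when replication and transcription meet.

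All 3 groups were HEK293T cells, a human embryonic kidney line with the SV40 large T antigen, co-transfected with the plasmids pShP2419 and pStH1169, from which the cells produce human TET2, an oxidase of 5-methylcytosine, in a form that light switches on. Cells of every group spent 48 h with 0.1 mM of the photocaged serine 4,5-dimethoxy-2-nitrobenzyl-L-serine. The caged 0 h group received no light, and the uncaged 4 h and uncaged 8 h groups received 365 nm light for 3 min and then stayed in growth medium for 4 h or 8 h; each group has 2 libraries, made from mRNA of 500000 sorted transfected cells. No group got light without the enzyme or time without light, so light, washing, fresh medium, time and TET2 cannot be told apart.

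The libraries held 14903812 to 17670499 estimated counts on genes, which makes 3 counts, the most that a count of 0 allows, equal to 0.170 to 0.201 CPM (counting error only). The share of counts on plasmid sequences was 11.49% and 11.76% without light and 14.79% to 15.49% after it, and the TMM scaling factor fell from 1.034 and 1.039 in the caged libraries to 0.961 and 0.968 at 8 h; their part in the results was not tested. Scaling by library totals alone shifted the median log2 fold change of all features at 8 h by -0.10, and took the share of calls that were higher from 53.0% to 29% at 8 h, from 63.3% to 44.7% at 4 h and from 62.8% to 35.4% in the step from 4 h to 8 h. All 8 HEK293T markers were above 1 CPM (summed level 621 to 725 CPM), while PTPRC and CD3E of leukocytes, HBB of erythroid cells and CDH5 and PECAM1 of endothelium were under 1 CPM. The other leukocyte marker, CD14, had a mean of 3.15 CPM, the erythroid HBA1 9.38 CPM and the hepatocyte marker ALB 1.57 CPM. Summed levels were 2.49 to 2.98 CPM (leukocyte) and 9.86 to 10.1 CPM (erythroid) in caged libraries and 3.35 to 4.34 and 8.05 to 10.3 CPM at 8 h; their part in the results was not tested. Nothing says that the 2 libraries of a group came from separate cultures, so p-values measure only the spread between libraries, which may be technical. In bulk RNA, fewer cells that express a gene and less RNA per cell cannot be told apart. A call below means an adjusted p under 0.05 in edgeR's quasi-likelihood test with Benjamini-Hochberg adjustment over all 17449 features tested, and errors of log2 fold changes are SE with n = 2 libraries a group; all 192 very long genes were tested.

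The very long genes had a median span of 699.9 kb, up to 2305 kb, and a median of 17.5 exons in the longest coding transcript. Their longest coding mRNA (median 6841 bases) took a median of 0.910% of the span, against 13.4% in the 10089 genes under 100 kb. The longest intron had a median of 222.6 kb. Their level was lower than that of genes under 100 kb, with a median of 11.2 against 36.4 CPM, and FAF1, a ubiquitin-binding adaptor, was the most abundant at 252 CPM. Levels in CPM printed for single genes are not divided by length or by the TMM factor. Fold changes, counts of genes without overlap between groups and deviations from the gene mean use that factor. Scaling by library totals alone, as in these levels, shifted the median log2 fold change of all features by -0.050 at 4 h and -0.10 at 8 h. Printed levels thus show a larger fall, or a smaller rise, after light than the fold changes.

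Uncaged 8 h against caged 0 h is the longer of the intervals after light. In that comparison 71 of the 192 very long genes fell (37.0%), where 13.2% of all tested features were called lower, and 7 rose (3.65%), where 14.9% of all features were called higher. The median log2 fold change of the very long genes was -0.33, a fall of 20.5%, against -0.0046 over all features, and 161 of 192 lay below 0. Both 8 h libraries were under both caged libraries in 133 of them (69.3%), against 33.6% of all features, and above both in 18 (9.38%), against 32.6%. Without caged replicate 1 the lower count was 40, without caged replicate 2 it was 41, without 8 h replicate 1 it was 42 and without 8 h replicate 2 it was 49.

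At 4 h against caged 0 h few very long genes were called, and their shift from all features was smaller than at 8 h. Of 192, 8 fell (4.17%) and 3 rose (1.56%), where 3.56% of all tested features were called lower and 6.16% higher. Their median log2 fold change was -0.10, against -0.0061 over all features, and 127 lay below 0. The 4 h libraries were both under the caged ones in 77 genes (40.1%, all features 28.4%) and both above in 34 (17.7%, all features 28.5%). Leaving out caged replicate 1, caged replicate 2, 4 h replicate 1 or 4 h replicate 2 took the lower count to 2, 1, 3 and 2 and the higher count to 2, 1, 1 and 0. Of the 11 genes called, only NFIA kept its call with each of the 6 libraries left out. SYNE1 lost it without 4 h replicate 2 (adjusted p = 0.0545, edgeR). SEMA6D, a transmembrane semaphorin, had 5.27 and 4.98 CPM caged, 2.49 and 1.66 at 4 h and 2.00 and 2.48 at 8 h (-1.25 ± 0.25 at 4 h, adjusted p = 0.0199, edgeR). SCAPER, a cyclin A-associated protein of the endoplasmic reticulum, had 18 and 18, 12.2 and 11.4, and 12.4 and 12.6 CPM. SEMA3A, a secreted repellent of axons, went on falling in level, with 16.6 and 17.8, 11.9 and 9.34, and 7.88 and 7.78 CPM. In SEMA6D and SCAPER the 4 h and 8 h libraries overlapped or nearly met, and in SEMA3A the 8 h libraries were the lowest.

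The step from 4 h to 8 h was tested directly. In it 14 very long genes fell (7.29%) and 2 rose (1.04%), where 1.21% of all tested features were called lower and 2.05% higher. The median log2 fold change was -0.20, against -0.0034 over all features, with 153 of 192 below 0. Both 8 h libraries were under both 4 h libraries in 104 genes (54.2%, all features 27.2%) and above them in 19 (9.90%, all features 26.1%). These calls rest on all libraries: the lower count was 8 without either caged replicate, 0 without either 4 h replicate, 2 without 8 h replicate 1 and 0 without 8 h replicate 2, and the higher count was 0 in all 6 cases.

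Because very long genes have low levels, they were set against genes under 100 kb within 4 strata of mean level (1 to 3, 3 to 10, 10 to 30 and 30 CPM or more). The median log2 fold change of very long genes minus that of shorter genes, averaged over strata by the number of very long genes, was -0.29 at 8 h, -0.038 at 4 h and -0.20 in the step between them; the pooled SD between replicates of this measure was 0.026 for a single library. The 4 h libraries stood at 0.081 and 0.020 relative to each gene's mean, so the 4 h value is smaller than the gap between them. The 8 h difference was present in every stratum. Very long genes of 1 to 3 CPM had a median of -0.41 (43 genes) against -0.043 for shorter ones, and those of 3 to 10 CPM had -0.55 (50 genes) against -0.20. Those of 10 to 30 CPM had -0.38 (55 genes) against -0.15, and those of 30 CPM or more -0.15 (44 genes) against 0.077. The 4 h difference reversed to 0.0094 without 4 h replicate 2, and to 0.046 against shorter genes whose mRNA had a GC content under 45%.

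**Figure D1:**
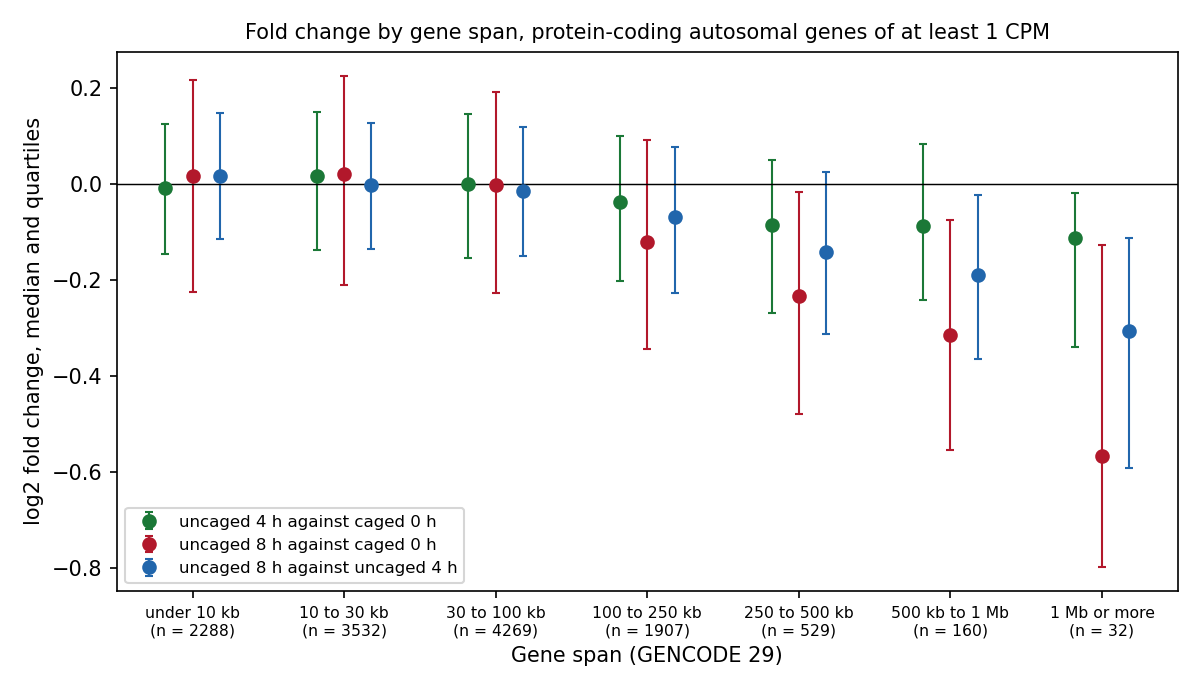
Median log2 fold change (points) with quartiles (bars) of protein-coding autosomal genes of at least 1 CPM in 7 classes of gene span, for the 3 comparisons. The 8 h medians lie near 0 up to 100 kb and go down to -0.57 in the class of 1 Mb or more.

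The fall at 8 h was graded by span, in classes that were not matched for level. The median log2 fold change was 0.017 in genes under 10 kb, 0.021 from 10 to 30 kb and -0.0016 from 30 to 100 kb. It was -0.12 from 100 to 250 kb, -0.23 from 250 to 500 kb, -0.31 from 500 kb to 1 Mb (160 genes) and -0.57 at 1 Mb or more (32 genes). The share called lower went from 14.8% at 30 to 100 kb through 23.1% and 32.3% to 35.0% and 46.9% in the same classes, and the share called higher from 18.3% to 11.3%, 4.73%, 4.38% and 0 of 32. At an unadjusted p under 0.05 in edgeR 0 of those 32 were higher, against 20.8% of all features called higher and 20.3% called lower by the same criterion. The step from 4 h to 8 h had medians of -0.014, -0.069, -0.14, -0.19 and -0.30 from 30 to 100 kb upward. At 4 h the medians were 0.0018, -0.037, -0.084, -0.086 and -0.11 in those classes. Among the very long genes alone the relation with span was weak, with Spearman's rho of -0.14 at 8 h over 192 genes, which share the same libraries.

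**Figure D2:**
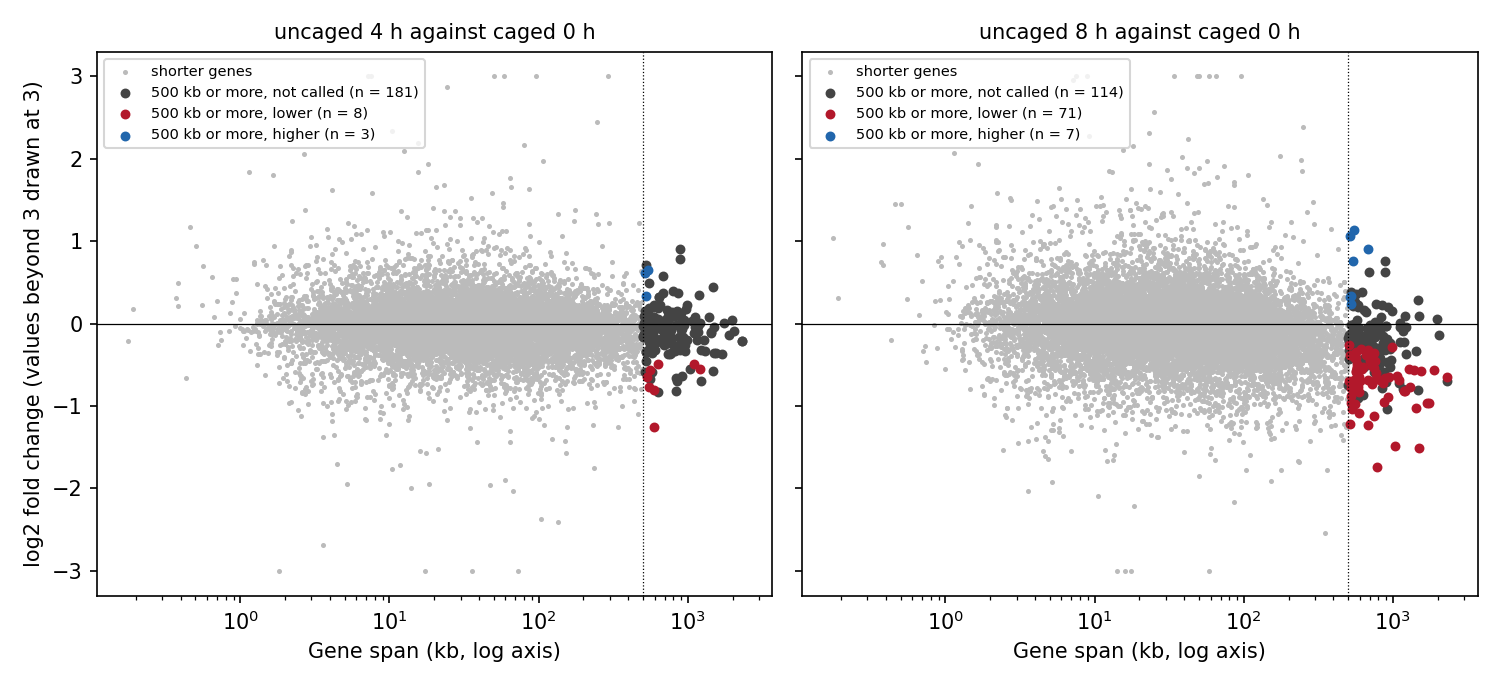
Log2 fold change of each protein-coding autosomal gene of at least 1 CPM against its span (log axis), at 4 h (left) and 8 h (right); genes of 500 kb or more are coloured by their call. At 8 h 71 very long genes were called lower and 7 higher, and at 4 h 8 and 3.

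**Figure D3:**
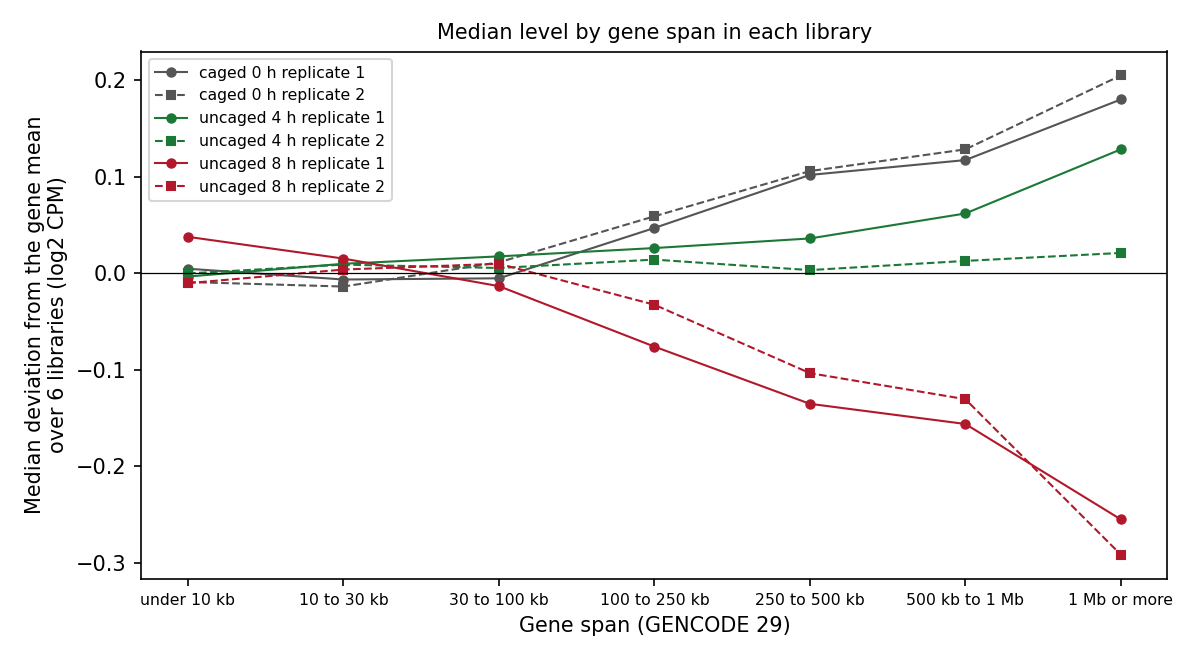
Median deviation from each gene's mean over 6 libraries (log2 CPM) by span class in each library. The lines spread with span, with the 8 h libraries at -0.26 and -0.29 and the caged ones at 0.18 and 0.21 in the class of 1 Mb or more.

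The single libraries show the same order. Relative to each gene's mean over 6 libraries, and to shorter genes of like level, the very long genes deviated by 0.092 and 0.096 without light, by 0.081 and 0.020 after 4 h and by -0.16 and -0.14 after 8 h (log2). The 8 h libraries did not overlap with the others, while 4 h replicate 1 lay close to the caged libraries and 4 h replicate 2 below them.

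MAGI1, a scaffold of tight and adherens junctions (chromosome 3, 65353525 to 66038834, minus strand, 685 kb), had the smallest p among the genes that fell at 8 h. Caged libraries held 48.0 and 46.4 CPM, 4 h libraries 44.0 and 43.3 CPM, and 8 h libraries 27.8 and 27.0 CPM. Its log2 fold change at 8 h was -0.68 ± 0.068 (adjusted p = 0.000633, edgeR), and between 4 h and 8 h it changed by -0.62 ± 0.069 (adjusted p = 0.0144, edgeR). The groups did not overlap, and the 8 h libraries stood far below the rest. NFIA, a transcription factor of glial and kidney development (chromosome 1, 60865259 to 61462793, plus strand, 598 kb), followed another course: it went from 38.2 and 43.3 CPM to 21.6 and 23.3 at 4 h and 20.9 and 21.9 at 8 h. Its fold change was -0.81 ± 0.091 at 4 h (adjusted p = 0.00318) and -0.83 ± 0.092 at 8 h (adjusted p = 0.000954), and the step between was -0.02 ± 0.098 (adjusted p = 0.936; all edgeR). Its estimated counts were not whole numbers in any library, so some of its reads were divided between features. ADGRL3, the adhesion receptor latrophilin-3 (chromosome 4, 61201258 to 62078335, plus strand, 877 kb), had 13.7 and 14.1 CPM caged, 12.9 and 11.1 at 4 h and 6.61 and 6.78 at 8 h, a log2 fold change at 8 h of -0.95 ± 0.13 (adjusted p = 0.00174, edgeR).

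Against these, 7 very long genes rose at 8 h, all of 686 kb or less. SYNE1, which encodes the giant nuclear envelope spectrin-repeat protein nesprin-1 (chromosome 6, 152121684 to 152637801, minus strand, 516 kb, 146 exons in its longest coding transcript), went from 23.6 and 23.9 CPM to 34.4 and 35.6 at 4 h and 48.8 and 43.6 at 8 h. It rose at 4 h (0.61 ± 0.081, adjusted p = 0.00506), at 8 h (1.06 ± 0.079, adjusted p = 0.000244) and in the step between (0.45 ± 0.077, adjusted p = 0.0294; all edgeR). Its annotation holds 17 starts of coding transcripts, the shortest of which spans 6139 bases, and the table does not separate them. THSD4, a thrombospondin-repeat protein of microfibrils (chromosome 15, 71096952 to 71783383, plus strand, 686 kb), went from 8.55 and 8.81 CPM through 11.2 and 10.4 to 15 and 15.1 (0.90 ± 0.11 at 8 h, adjusted p = 0.00128, edgeR). CREB5, a CRE-binding transcription factor (chromosome 7, 28299321 to 28825894, plus strand, 527 kb), rose by 4 h and stayed, with 100.8 and 102.8 CPM caged, 122 and 127 at 4 h and 121 and 118 at 8 h. FAT3, a giant cadherin, rose at both times (0.65 ± 0.13 and 0.76 ± 0.13), and SORCS2, a sorting receptor, by 1.13 ± 0.20 at 8 h. FAF1 (0.23 ± 0.054) and SBF2 (0.33 ± 0.080), a myotubularin-related protein, rose least, and both lost their call when a library was left out, with an adjusted p of up to 0.0927 and 0.0907.

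The promoter letters of the 3 falling genes and 2 rising genes of smallest p that had a usable window are shown because TET2 acts on CG dinucleotides, which are in capitals. Each is the 250 bases before the RefSeq start of the gene (GRCh38.p14), written 5′ to 3′ on the strand of the gene. In the order printed, the RefSeq start lay 84, 47, 932, 58 and 7 bases from the nearest start of any GENCODE transcript. It need not be the gene start used for the span, nor the start in use in these cells. The windows of NFIA and CREB5 lie within the gene, downstream of the gene start from which the span was counted. The windows are chr3:66038919-66039168 (minus), chr1:61076977-61077226 (plus), chr4:61200076-61200325 (plus), chr15:71096644-71096893 (plus) and chr7:28412268-28412517 (plus).
MAGI1: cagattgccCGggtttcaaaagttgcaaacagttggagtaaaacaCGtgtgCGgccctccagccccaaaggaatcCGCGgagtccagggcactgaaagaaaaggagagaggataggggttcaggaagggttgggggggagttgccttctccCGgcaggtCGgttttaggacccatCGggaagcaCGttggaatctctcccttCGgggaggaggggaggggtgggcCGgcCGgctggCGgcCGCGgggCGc
NFIA: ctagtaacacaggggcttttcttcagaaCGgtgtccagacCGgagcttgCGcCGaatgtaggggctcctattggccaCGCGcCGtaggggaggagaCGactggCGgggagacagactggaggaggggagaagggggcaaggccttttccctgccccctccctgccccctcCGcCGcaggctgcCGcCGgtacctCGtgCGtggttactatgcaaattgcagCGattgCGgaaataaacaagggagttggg
ADGRL3: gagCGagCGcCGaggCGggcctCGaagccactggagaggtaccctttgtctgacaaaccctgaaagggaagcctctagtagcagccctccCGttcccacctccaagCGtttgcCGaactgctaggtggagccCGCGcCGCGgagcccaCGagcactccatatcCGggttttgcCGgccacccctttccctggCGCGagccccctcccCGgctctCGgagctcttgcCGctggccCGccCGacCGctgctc
THSD4: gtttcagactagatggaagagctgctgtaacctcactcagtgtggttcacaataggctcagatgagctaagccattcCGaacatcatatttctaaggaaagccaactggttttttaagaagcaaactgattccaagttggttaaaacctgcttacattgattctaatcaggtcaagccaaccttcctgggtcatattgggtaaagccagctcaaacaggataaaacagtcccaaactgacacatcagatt
CREB5: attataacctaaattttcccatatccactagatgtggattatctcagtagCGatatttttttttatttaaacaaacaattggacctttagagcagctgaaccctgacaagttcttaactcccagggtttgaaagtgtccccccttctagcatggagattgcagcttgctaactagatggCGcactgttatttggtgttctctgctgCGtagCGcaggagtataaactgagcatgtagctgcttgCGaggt
The printed bases of MAGI1, NFIA and ADGRL3 hold 16, 17 and 23 CG dinucleotides, and those of THSD4 and CREB5 hold 1 and 5. Over the whole RefSeq windows of 300 bases, 161 of 192 very long genes had one, with a median of 23 CG dinucleotides against 27 in 10225 expressed protein-coding autosomal genes. The 61 windows of genes that fell at 8 h also had a median of 23, the 95 of genes without a call 24, and the 5 of genes that rose 12. Searched on both strands, TATAAA was present in 9.32% of the very long genes' windows and 5.46% of all windows, CCAAT in 31.1% and 36.6%, and GGGCGG in 56.5% and 71.4%. No methylation was measured here, and a match is a run of letters only.

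**Figure D4:**
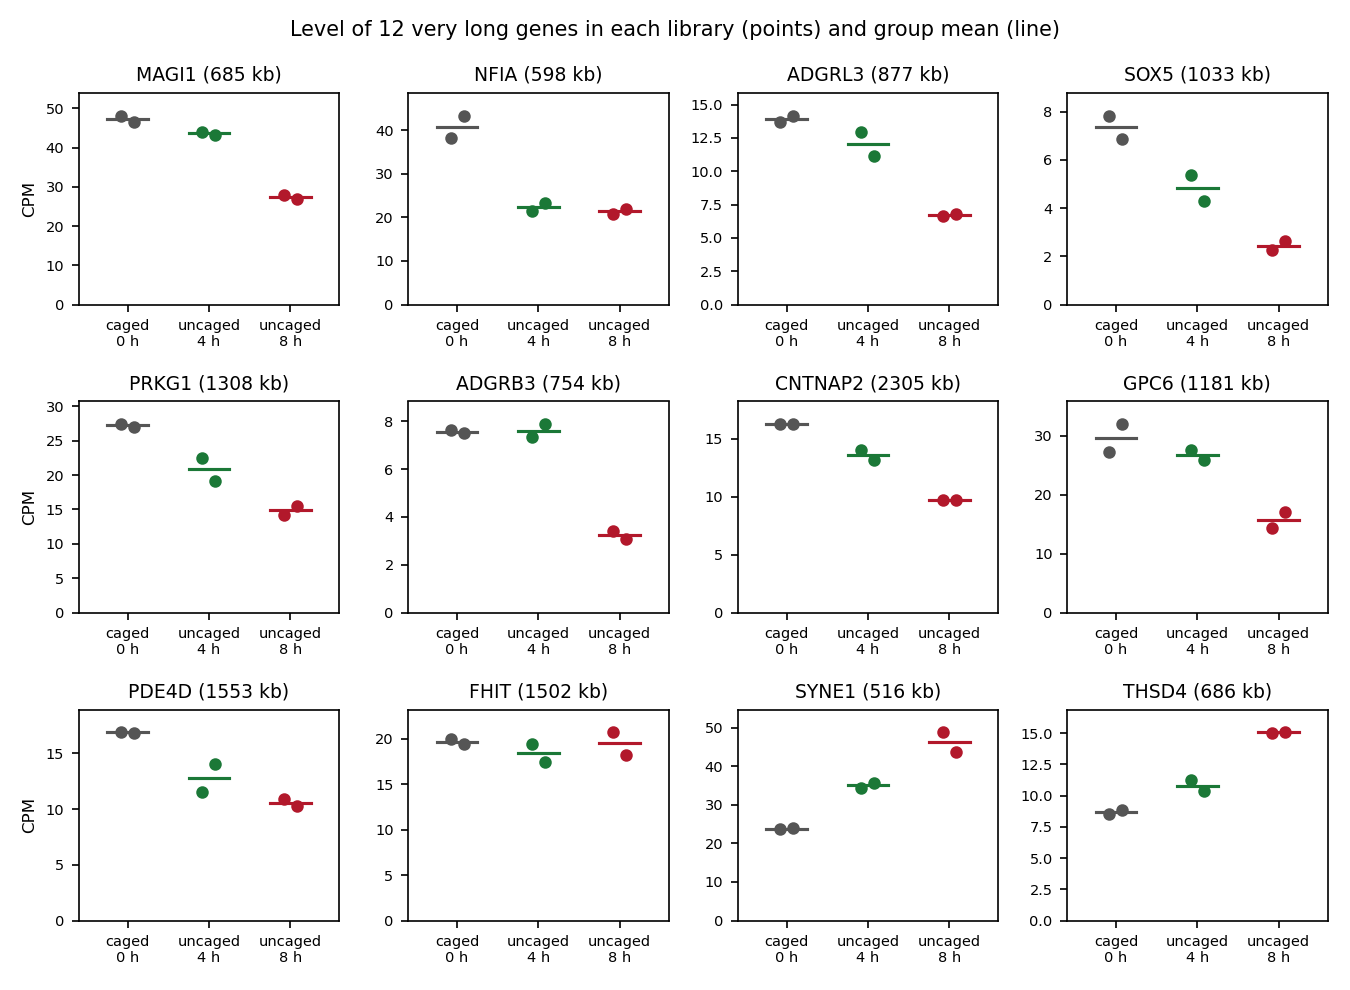
Level in CPM of 12 very long genes in each library (points) with the group mean (line), each axis starting at 0. MAGI1, ADGRL3 and ADGRB3 are level or slightly down at 4 h and low at 8 h, NFIA is low at both times, FHIT stays near 19 CPM, and SYNE1 and THSD4 go up.

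Grouped by what the proteins do, the lists chosen for these genes held 140 of the 192. The lists are not complete: CREB5, a transcription factor, and FAT3, a cadherin, both of which rose, stand among the 52 genes in no list and are not in the counts of their kind. The counts below are to be read beside the 37.0% of all very long genes, and the 13.2% of all features, called lower at 8 h. Adhesion and guidance receptors, which join neurons and steer axons, fell in 14 of 24 at 8 h and rose in 1 (SORCS2), with a median of -0.64. At 4 h 1 of 24 fell and the median was -0.063, and 5 fell in the step from 4 h to 8 h, with a median of -0.51. ADGRB3, a C1q-binding adhesion receptor, stood at 7.64 and 7.5 CPM caged, 7.35 and 7.89 at 4 h and 3.41 and 3.09 at 8 h, and the step was -1.17 ± 0.15 (adjusted p = 0.0181, edgeR). Its 4 h libraries overlapped with the caged ones, and both 8 h libraries lay far below. ROBO2, a receptor for Slit ligands, had 7.30 and 6.64 CPM caged, 6.10 and 7.42 at 4 h and 3.61 and 3.02 at 8 h. PCDH9, a protocadherin, went from 46.4 and 48.0 CPM through 46.6 and 34.4 to 22.5 and 25, and the attractin-like ATRNL1 from 15 and 14.5 through 14.3 and 13.9 to 8.08 and 8.59. In all of these genes the 8 h libraries lay under the other 4.

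Transcription, chromatin and RNA-binding factors fell in 12 of 23 at 8 h with a median of -0.53; 0 were called higher by edgeR, and 0 at an unadjusted p under 0.05. This was the role list with the lowest median at 4 h, -0.34, with 4 of 23 called lower then: NFIA, FOXP1, ZFHX3 and ZFPM2. SOX5, a SoxD factor of cartilage and neurons, had the steepest 8 h fall in the list, from 7.81 and 6.87 CPM through 5.38 and 4.31 to 2.27 and 2.62 (-1.48 ± 0.20, adjusted p = 0.00182, edgeR). FOXP1, a forkhead repressor, had 48.8 and 51.3 CPM caged, 33.9 and 34.9 at 4 h and 30.1 and 34.5 at 8 h, and the step was -0.04 ± 0.087 (adjusted p = 0.850, edgeR). The zinc-finger factor ZFHX3 went from 28.6 and 28.9 CPM through 17.5 and 22.2 to 17.1 and 16.4, and TSHZ2 from 8.43 and 8.64 through 6.36 and 6.63 to 4.07 and 4.09. AUTS2, a Polycomb-associated regulator, differed: with 47.8 and 39.5 CPM caged, 52.8 and 54.5 at 4 h and 36.1 and 33.6 at 8 h, it was called only in the step (-0.57 ± 0.096, adjusted p = 0.0293, edgeR).

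Junction and polarity scaffolds fell in 7 of 14 at 8 h and rose in 1, SYNE1, which stands in this list, with a median of -0.33. MAGI2, the paralogue of MAGI1, went from 7.39 and 7.10 CPM through 6.97 and 6.06 to 3.07 and 3.56 (-1.02 ± 0.17 at 8 h, adjusted p = 0.00396, edgeR). FRMD4A, a FERM-domain polarity scaffold, went from 20.62 and 19.98 CPM through 15.9 and 15.3 to 12.1 and 11.4. Kinases, phosphodiesterases and GTPase regulators fell in 4 of 13 (30.8%, median -0.33). Among them PRKG1, the cGMP-dependent kinase, went from 27.4 and 27.1 CPM through 22.6 and 19.1 to 14.2 and 15.5. Ion channels and neurotransmitter receptors fell in 3 of 10 (median -0.40) and receptor protein tyrosine phosphatases in 2 of 4 (median -0.42). Metabolic, transport and matrix genes fell in 7 of 24 (29.2%, median -0.19). The heparan sulphate proteoglycan GPC6 was one of them, with 27.2 and 31.9 CPM caged, 27.6 and 25.8 at 4 h and 14.4 and 17 at 8 h. GMDS, which makes GDP-fucose, was another, with 36.8 and 35.9, 29.9 and 30.2, and 24.1 and 22.1 CPM. Cytoskeletal and trafficking genes fell in 10 of 28 (35.7%, median -0.19). Of the 52 genes in no list 12 fell (23.1%) and 5 rose (median -0.22). The shares of these 4 groups lie below or near that of all very long genes. Whether these lists differ from each other was not tested.

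**Figure D5:**
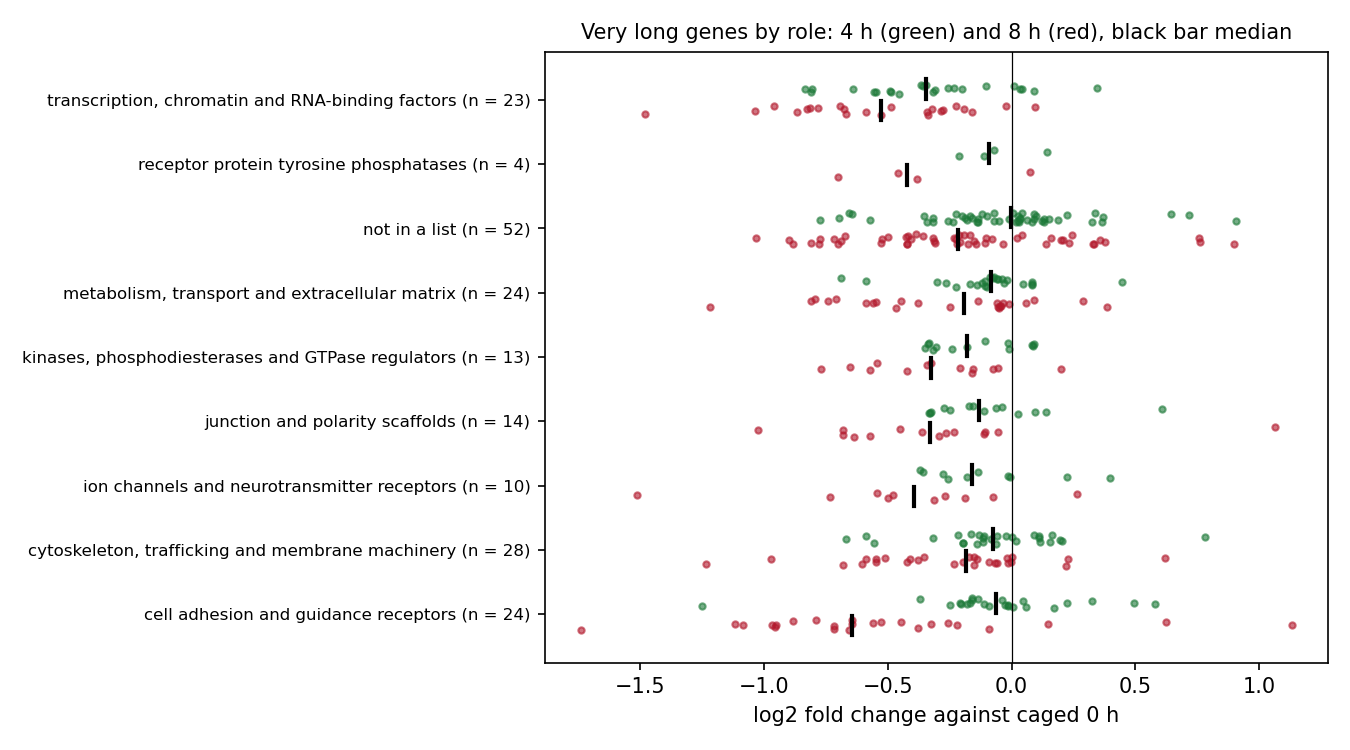
Log2 fold change against caged 0 h of each very long gene by role list at 4 h (green) and 8 h (red), with the median as a black bar. The adhesion and guidance receptors have medians of -0.063 at 4 h and -0.64 at 8 h, and the transcription, chromatin and RNA-binding factors -0.34 and -0.53.

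Of the 10 widest genes 6 fell at 8 h and none rose. Of all very long genes 37.0% were called lower and 3.65% higher then, and of all features 13.2% and 14.9%. CNTNAP2, an axonal neurexin-family protein and the widest at 2305 kb, had 16.2 and 16.3 CPM caged, 14.1 and 13.1 at 4 h and 9.69 and 9.67 at 8 h (-0.64 ± 0.10, adjusted p = 0.00358, edgeR). PDE4D, a cAMP phosphodiesterase of 1553 kb, went from 16.9 and 16.9 CPM through 11.5 and 14 to 10.9 and 10.3. Among the others that fell, the lipoprotein receptor LRP1B and the neurexin NRXN3 lost their call when 1 library was left out, with an adjusted p of up to 0.118 and 0.0641; PDE4D lost it without caged replicate 1 (adjusted p = 0.0536). PTPRD, a receptor phosphatase of 2298 kb, had -0.70 ± 0.25 and missed the threshold (adjusted p = 0.0642, edgeR). MACROD2, a mono-ADP-ribosylhydrolase of 2058 kb, had 8.55 and 9.73 CPM caged and 7.81 and 7.65 at 8 h (-0.14 ± 0.13). FHIT, a dinucleotide hydrolase of 1502 kb, had 19.98 and 19.39 CPM caged, 19.5 and 17.5 at 4 h and 20.7 and 18.2 at 8 h, and its groups overlapped (0.09 ± 0.10, adjusted p = 0.529, edgeR). EYS, an extracellular matrix protein of photoreceptors, stood at 1.74 to 2.78 CPM with overlapping groups. Genes at common fragile sites, 17 of the very long genes, fell in 9 cases at 8 h (52.9%) with a median of -0.47. At 4 h 0 of them were called by edgeR, with a median of -0.072. At an unadjusted p under 0.05, 1 was lower and 1 higher at 4 h, where 12.3% of all features were lower and 14.5% higher.

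The length of the mature mRNA was compared as well. Very long genes whose longest coding mRNA was under 3 kb had a median of -0.055 at 8 h (21 genes, 5 lower), those of 3 to 6 kb -0.39 (52 genes, 13 lower) and those of 6 kb or more -0.38 (119 genes, 53 lower and 7 higher). Genes under 100 kb had medians of 0.021, 0.0032 and -0.0086 in the same mRNA classes, and genes of 100 to 500 kb had -0.057, -0.14 and -0.16. With an mRNA under 3 kb the very long genes and those of 100 to 500 kb thus had like medians. By GC content of that mRNA the 8 h medians were -0.43 under 42% (60 genes), -0.30 from 42% to 50% (90 genes) and -0.17 from 50% (42 genes), against 0.027, 0.070 and -0.028 in genes under 100 kb. At 4 h the medians of the very long genes in the same GC classes were -0.17, -0.074 and 0.021. Shorter genes went the same way at 4 h, with -0.12, -0.038 and 0.013 from 100 to 500 kb and -0.054, 0.012 and 0.025 under 100 kb. With offsets for exonic length and GC the 8 h difference from shorter genes was -0.22.

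A gene's span need not be the span of the transcript in use. In 149 very long genes the principal coding transcript spanned 500 kb or more, and their 8 h median was -0.34, while the 43 others had -0.32. Only 8 had a principal transcript under 120 kb, and these had a median of -0.18 at 8 h. Genes whose longest intron was 250 kb or more had a median of -0.45 (80 genes, 31 lower, 0 higher), and those with a shorter one -0.23 (112 genes, 40 lower, 7 higher). The shares called lower, 38.8% and 35.7%, both lay near the 37.0% of all very long genes. Of all features 13.2% were called lower and 14.9% higher. Salmon divides reads between transcripts, and 103 very long genes had whole estimates in every library. In a fit of features with whole estimates alone, 40 of those 103 fell and 3 rose at 8 h, the difference from shorter genes was -0.20, and at 4 h it was 0.024.

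In the lists of elongation factors and of transcription-coupled repair and TFIIH, more members were called higher than lower at 8 h. Of 42 transcription elongation factors 21 rose and 1 fell at 8 h (median 0.22), 10 rose and 2 fell at 4 h (median 0.12), and 2 rose in the step between. Of all features 14.9% were called higher at 8 h and 6.16% at 4 h, and of genes under 100 kb with 30 CPM or more 27.7% and 11.6%; whether the list differs from genes of like level was not tested. HEXIM1, which holds the elongation kinase P-TEFb inactive, went from 72.5 and 69.1 CPM to 113 and 123 at 4 h and 116 and 118 at 8 h. MEPCE, which caps the 7SK RNA of the same complex, went from 135 and 134 CPM through 185 and 200 to 208 and 199, and IWS1, a partner of SPT6, from 82.0 and 85.5 through 87.8 and 88.7 to 126 and 127. Other members fell. LARP7, which binds the 7SK RNA, fell at 4 h from 12.03 and 11.96 CPM to 7.79 and 7.27 (-0.62 ± 0.14, adjusted p = 0.0300, edgeR) and stood at 9.78 and 12.01 at 8 h, overlapping with the caged libraries. MLLT3, a subunit of the super elongation complex, fell at 4 h from 18.1 and 18.5 CPM to 12.8 and 11.9 and stood at 15.6 and 14.4 at 8 h. AFF1, a scaffold of that complex, went from 39.4 and 39.3 CPM through 33.7 and 34.5 to 28.5 and 26.6, a fall at 8 h (-0.41 ± 0.072, adjusted p = 0.00506, edgeR). Of 19 genes of transcription-coupled repair and TFIIH, 9 rose at 8 h (47.4%) and 3 at 4 h (15.8%), and 0 fell. ERCC6, which encodes the repair factor CSB, went from 16.6 and 19.9 CPM through 25.1 and 24.4 to 30.4 and 30.1. Of 5 topoisomerases 1 rose and 1 fell at 4 h, and 1 rose (TOP3B) and 0 fell at 8 h. TOP1, which relieves supercoils ahead of the polymerase, fell at 4 h from 135 and 124 CPM to 98.2 and 92.6 and stood at 129 and 144 at 8 h, a rise in the step. All 3 lists were chosen with earlier results known, and no measurement of elongation was made.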

How the data were processed

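mRNA of sorted HEK293T cells was sequenced on DNBseq in 6 libraries, 2 in each of 3 groups. The authors deposited expected counts per gene, estimated with Salmon 1.1.0 on GRCh38 per the submitters' processing notes, which also name R 3.6.1 and DESeq2; for transcript annotation and strand setting: not given in the sources used here. Estimates were rounded to whole numbers. The 5 plasmid sequences (11.49% to 15.49% of a library) were left out. Of 60179 gene IDs, 58083 matched GENCODE 29 without the version, which gave spans, exons and transcripts. Levels in CPM use the sum over genes.

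All features passing filterByExpr (minimum count 10, minimum total 15) entered 1 edgeR 4.0.16 quasi-likelihood fit of the 3 groups with TMM scaling in R 4.3.3 (17449 features, 3 residual degrees of freedom, prior degrees of freedom 5.43, common biological coefficient of variation 6.34%), with Benjamini-Hochberg adjustment over all. The procedure was run on simulated counts in which every feature had the same coefficient of variation, unlike in real libraries. At 4 h, at 8 h and in the step, 24%, 26% and 14% of simulated 1.25-fold changes were recovered. For 1.5-fold changes the shares were 76%, 76% and 74%. False calls made up 6.21%, 6.74% and 2.94% of calls. Replicates were not the same library deposited again (chi-square per degree of freedom 3.65 to 4.31). An estimate within 0.01 of a whole number was taken as whole. Alternatives were other scalings, filters and tools (DESeq2 1.42.0, limma 3.58.1), a replicate block, other thresholds, other shorter genes and each library left out; shorter genes with a long or GC-poor mRNA were added after seeing the data. The genes named were the 10 widest, up to 12 called per comparison and direction by smallest p, those of counts of 5 or fewer and the neighbours of each threshold, and up to 4 called genes per direction of the other lists. The values of 1 gene that the rule names are not reported here. The genes and lists were chosen with earlier results of these data known.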

Additional observations from a re-analysis of the deposited data

Results flagged for a closer look

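In 14 very long genes, the 12 lower ones of smallest p and both higher ones, the values at 4 h and 8 h, which share the caged libraries, differed by the direct test of 8 h against 4 h (edgeR, adjusted p under 0.05). The log2 difference was negative in 12: ADGRB3 (-1.17), ROBO2 (-0.973), MAGI2 (-0.915), ADGRL3 (-0.791), PCDH9 (-0.717), GPC6 (-0.713), ATRNL1 (-0.705), SLC9A9 (-0.677), MAGI1 (-0.618), AUTS2 (-0.57), LRBA (-0.445) and SNX29 (-0.431). It was positive in SYNE1 (0.454) and THSD4 (0.532). SLC9A9, an endosomal sodium-proton exchanger, had 13.9 and 14.7 CPM caged, 13.0 and 12.8 at 4 h and 8.01 and 7.51 at 8 h. LRBA, a vesicle trafficking protein, had 84.8 and 80.2, 90.1 and 79.8, and 61.6 and 58.6 CPM. SNX29, a sorting nexin, had 33.0 and 32.1, 37.0 and 36.4, and 24.4 and 28.0 CPM, and in the last 2 genes and in AUTS2 the 4 h libraries were not below the caged ones as a group. Of these 14 calls 0 held with every library left out.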

How the results depend on the processing

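The difference from shorter genes of like level stayed negative at 8 h and in the step from 4 h to 8 h under every alternative run. At 4 h it was small, and it reversed to 0.0236 with features whole in every library, to 0.000799 with estimates whole in at least 3 libraries, to 0.046 against GC-poor shorter genes and to 0.00944 without 4 h replicate 2; the cause was not tested.

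With each library left out, the difference ranged from -0.0579 to 0.00944 at 4 h, from -0.29 to -0.249 at 8 h and from -0.242 to -0.163 in the step. The lower counts ranged from 1 to 8, from 40 to 68 and from 0 to 8, and the higher counts from 0 to 3, from 5 to 7 and from 0 to 0.

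At 8 h the difference was -0.224 with length and GC offsets, -0.201 with whole features, -0.354 at 750 kb or more, -0.251 at 5 CPM or more, -0.259 with estimates whole in at least 3 libraries, -0.149 against genes of 100 to 250 kb, -0.254 with strata of equal size in level and -0.232 against shorter genes with a long mRNA. In the step it was -0.156 with offsets, -0.252 at 750 kb or more, -0.168 at 5 CPM or more, -0.0971 against genes of 100 to 250 kb, -0.153 against long mRNA and -0.289 against GC-poor genes; at 4 h it was -0.00472 against genes of 100 to 250 kb.

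Lower counts at 8 h were 42 with DESeq2, 40 with whole features (103 genes), 114 at 400 kb or more (313 genes) and 28 at 750 kb or more (79 genes). Higher counts were 3, 14 and 0 in the last 3. The 8 h counts of 71 lower and 7 higher also moved with scaling and filter. They were 94 and 5 with library totals alone, 51 and 6 with cyclic loess scaling, and 55 and 5 without a filter. Lower counts at 4 h were 2 with DESeq2, 5 without a filter, 5 with whole features, 14 at 400 kb, 2 at 750 kb (0 higher), 4 by principal transcript and 5 with estimates whole in at least 3 libraries. In the step 27 were lower with library totals alone and 1 without a filter (0 higher), and higher counts were 1 with DESeq2, 1 with whole features, 1 with the 4 compared libraries alone and 0 at 750 kb.

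With the replicate number as a block the step had 6 lower and 0 higher, and 8 h had 65 lower and 7 higher. Deviations of same-numbered libraries correlated at 0.00081, 0.0474 and -0.05, so no shared effect of the replicate number was seen. Such correlations cannot tell whether same-numbered libraries were cultured or processed together.

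Of 43 very long genes of 1 to 3 CPM, 4 were called lower at 8 h (9.30%), against 6.29% of genes under 100 kb in that range of level.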
